A study of Mus musculus with 12 samples.

Results

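The genes described here are 10 members of FGF and HGF signalling: the ligands Fgf2, Fgf5, Fgf7, Fgf10 and Fgf18, the receptors Fgfr1, Fgfr2 and Fgfr3, the FGF receptor-like gene Fgfrl1, and Hgf. Each was found by its symbol, once, among the 52636 gene rows of the deposited tables. Bulk RNA-seq of whole cultures gave 12 libraries, 3 in each of 4 groups. SMCs and PDGFR-β+ cells each received a scrambled control RNA (Scr, genotype WT in the labels) or a small interfering RNA against Klf4 (siKlf4, labelled Klf4 KD). The SMCs are purchased primary C57BL/6 mouse cells, called lung airway SMCs in the titles and tracheal SMCs in the source field, with no animal age given. The PDGFR-β+ cells are labelled as lung cells of C57BL/6 mice aged 12 weeks. According to the methods, they were sorted by the Zs reporter from mice carrying tamoxifen-induced Pdgfrb-CreERT2 and then cultured, so both populations had grown on dishes before transfection. The methods also state that transfected cells were kept in SMC medium whose supplements include EGF, FGF and serum. Every group was therefore exposed to added ligands.

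FGFs are secreted ligands that bind receptor tyrosine kinases together with heparan sulphate, and the bound receptor signals through docking proteins and the ERK kinase cascade, which switches on its own inhibitors. In the lung, mesenchymal FGF7 and FGF10 act on a splice form of FGFR2 carried by epithelium, where they drive branching, growth and repair. HGF is made by mesenchyme as an inactive precursor, is cut by proteases, and signals through the receptor MET, also mainly on epithelium and endothelium. Gene-level values do not separate the FGFR2 splice forms, and RNA does not show whether HGF protein was cut.

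Expression is given as TPM, an abundance in which reads are divided by transcript length and each library is then scaled to one total. TPM values of different genes can therefore be set side by side within a library. The methods state the depth aimed for, but the depth reached by each library is unknown. Values are listed for SMCs in the order of the unnumbered library, replicate 2 and replicate 3, since 1 Scr and 1 siKlf4 SMC library carry no replicate number, and for PDGFR-β+ cells in the order of replicates 1, 2 and 3. Effects are siKlf4 minus Scr on the log2(TPM + 1) scale with the SE from limma, which understates changes of low genes, and p-values are adjusted by Benjamini-Hochberg over all genes that averaged 1 TPM or more in that cell type. A gene is said to rise or fall when its adjusted p is under 0.05. Exact two-sided permutation of 3 libraries against 3 cannot go below p = 0.1, so single genes could not pass by permutation. The replicates are independent experiments in the words of the methods.

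Klf4 fell in every siKlf4 library. SMCs gave 89.6, 96.3 and 95.0 TPM under Scr against 26.5, 16.3 and 18.8 TPM under siKlf4, leaving 21.9% of the Scr mean. PDGFR-β+ cells gave 144, 146 and 134 TPM under Scr against 12.3, 13.8 and 12.8 TPM under siKlf4, leaving 9.16%. Bulk values cannot tell fewer cells of a kind from less RNA per cell, here or below. Pdgfrb itself measured 423 to 474 TPM in Scr-treated PDGFR-β+ cells and 213 to 216 TPM in Scr-treated SMCs. Of the defining markers of other cells, Krt8, Sftpc and Tie1 were at 0 in all 12 libraries, while Krt19 rose in SMCs and fell in PDGFR-β+ cells. The 7 epithelial markers summed to 3.69 to 4.19 TPM with Scr and 15.7 to 25.8 TPM with siKlf4 in SMCs, and to 21.6 to 38.6 TPM and 14.5 to 18.9 TPM in PDGFR-β+ cells. Krt19 was the 1 of these 7 that averaged 1 TPM or more in any group. The 5 mesothelial markers summed to 35.8 to 54.0 TPM with Scr and 17.8 to 22.0 TPM with siKlf4 in PDGFR-β+ cells, where all 4 tested fell, among them Msln from a mean of 8.25 to 0.663 TPM. In SMCs their sums overlapped, at 20.6 to 30.7 TPM and 25.2 to 32.8 TPM, with 1 of 3 tested higher, which was Krt19, and 2 lower. Krt19 belongs to both lists, and its mean in SMCs went from 3.62 to 20.0 TPM. Msln fell there from 19.1 to 7.14 TPM, and Wt1 from 1.69 to 0.844 TPM, a call lost with quantile normalization. The 6 leukocyte markers went from 45.5 to 49.5 TPM to 24.8 to 29.6 TPM in SMCs, where Cd14 fell, and from 35.4 to 37.0 TPM to 29.0 to 33.8 TPM in PDGFR-β+ cells, where 1 of 4 tested rose and 2 fell. The 6 endothelial markers summed to at most 18.4 TPM in any library, and 1 rose in each cell type. Of the 8 mesenchymal markers, 4 fell in each cell type and none rose. The contractile genes Acta2 and Tagln were detected in all libraries and were higher in Scr-treated PDGFR-β+ cells than in Scr-treated SMCs, and Myocd was at most 0.213 TPM in any library, so these markers do not set the SMCs apart as the more contractile population. All 8 interferon-stimulated genes examined rose in PDGFR-β+ cells and 7 of the 7 tested rose in SMCs. Their summed level went from 145 to 251 TPM with Scr to 669 to 748 TPM with siKlf4 in SMCs, and from 104 to 208 TPM to 2461 to 2701 TPM in PDGFR-β+ cells. This response moved with siKlf4 in the same libraries as every effect below, and its part in them was not tested. In SMCs, 5 of 6 tested smooth muscle markers rose with siKlf4, and in PDGFR-β+ cells 2 rose and 3 fell. Beside all these marker counts, 15.6% of all genes tested rose and 12.9% fell in SMCs. In PDGFR-β+ cells these shares were 25.3% and 15.3%. The part of these marker changes in the results below was also not tested.

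In SMCs, 2 of the 8 members tested fell with siKlf4, Fgf18 and Hgf, and none rose by the limma test, 1 having an unadjusted p under 0.05 in that direction. Among all 13709 genes tested in SMCs, 12.9% fell and 15.6% rose. In PDGFR-β+ cells, Fgf7, Fgf18 and Fgfrl1 fell and Fgf10 and Fgfr2 rose, so that 5 of 8 changed. Among all 13694 genes tested there, 15.3% fell and 25.3% rose. Fgf5 and Fgfr3 were below the minimum level in both cell types. The median effect over the 8 members was 0.0019 in SMCs and −0.20 in PDGFR-β+ cells, against 0.02 and 0.10 over all genes tested. Scaling each library by median ratios lowered the median effect in PDGFR-β+ cells by 0.11 and the share of rises among called genes from 62.3% to 47.0%, but the members called there were as many in each direction.

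**Figure D1:**
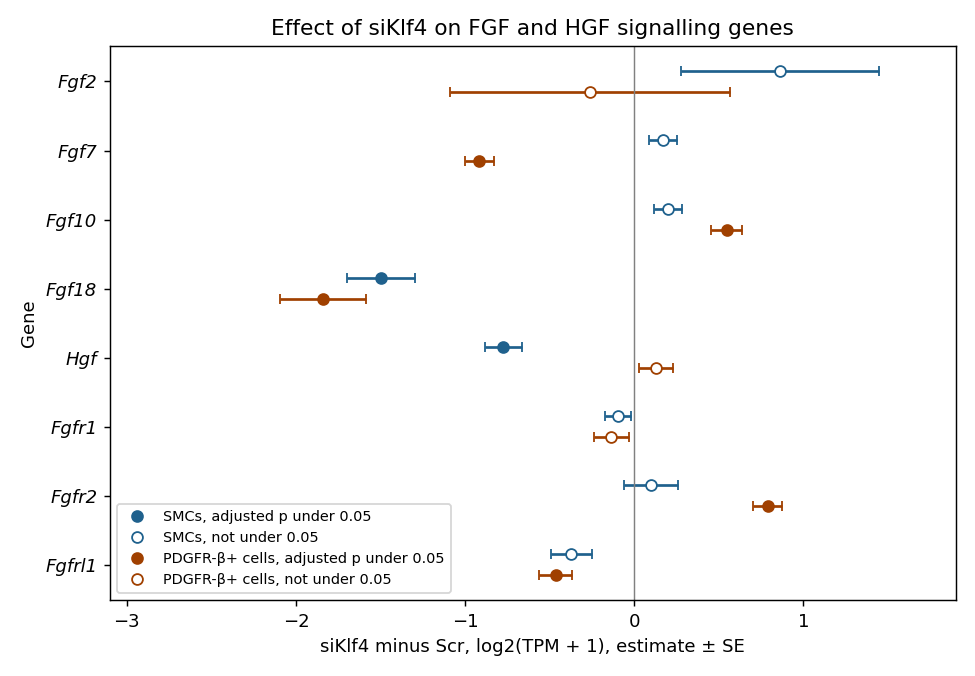
Effects of siKlf4 on 8 genes, as siKlf4 minus Scr on the log2(TPM + 1) scale with the SE, in SMCs and PDGFR-β+ cells, with 3 libraries a group. Filled points have an adjusted p under 0.05, and Fgf18 is the 1 gene with filled points in both cell types, at −1.50 and −1.84.

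Fgf18 fell most of the members in both cell types. The promoter windows of the 3 ligands with the largest falls, Fgf18, Fgf7 and Hgf, are shown because Klf4 encodes a zinc finger factor of a family that binds CACCC boxes. They are the 250 bases before the RefSeq start, from GRCm38.p6, 5′ to 3′ on the strand of the gene, with each CACCC, read on either strand, in capitals. Neither GENCODE exons of these genes nor of others overlap these windows.
Fgf18, chr11:33147401-33147650, minus strand: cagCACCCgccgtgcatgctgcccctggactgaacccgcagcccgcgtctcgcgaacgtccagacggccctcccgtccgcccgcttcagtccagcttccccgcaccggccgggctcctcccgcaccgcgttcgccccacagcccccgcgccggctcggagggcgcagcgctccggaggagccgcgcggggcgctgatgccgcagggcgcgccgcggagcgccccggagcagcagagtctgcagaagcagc
Fgf7, chr2:126034408-126034657, plus strand: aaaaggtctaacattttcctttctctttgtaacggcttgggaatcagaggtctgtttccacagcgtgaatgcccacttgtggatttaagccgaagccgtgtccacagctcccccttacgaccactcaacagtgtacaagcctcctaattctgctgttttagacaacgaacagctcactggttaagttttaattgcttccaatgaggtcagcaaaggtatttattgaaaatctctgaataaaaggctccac
Hgf, chr5:16553245-16553494, plus strand: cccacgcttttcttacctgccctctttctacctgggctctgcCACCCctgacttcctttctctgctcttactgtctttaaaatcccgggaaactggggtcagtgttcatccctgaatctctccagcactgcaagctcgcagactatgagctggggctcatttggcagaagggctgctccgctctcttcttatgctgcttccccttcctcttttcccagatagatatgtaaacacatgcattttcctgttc
The Fgf18 window holds 1 CACCC, which begins 247 bases before the start. The Hgf window shown holds 1, which begins 208 bases before its start, and the Fgf7 window holds none. RefSeq gives a second Hgf window, which holds none and overlaps Hgf exons. RefSeq windows were found for 9 of the 10 members, 11 windows in all, and 5 of these held the letters, against 52% of all 32851 promoter windows of that length. A match describes the letters of a window only, and no binding was measured in these data.

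FGF18 is a ligand of the FGF8 subfamily with roles in lung and cartilage growth, and its gene lies on the minus strand of chromosome 11 (GRCm38, 33117430 to 33147400). Fgf18 measured 19.5, 14.9 and 14.4 TPM in Scr-treated SMCs and 7.01, 4.47 and 4.08 TPM in siKlf4-treated SMCs. Every siKlf4 library was below every Scr library. The difference was −1.50 ± 0.20 on the log2 scale (SE, adjusted p = 0.0031, n = 3 per group), with 31.9% of the Scr mean left. In PDGFR-β+ cells Fgf18 measured 12.3, 10.99 and 16.2 TPM under Scr against 4.70, 2.55 and 1.94 TPM under siKlf4, again without overlap. There the difference was −1.84 ± 0.25 (adjusted p = 0.0013), with 23.3% of the Scr mean left. The effects in the cell types differed by 0.34 ± 0.35 (adjusted p = 0.48), which does not separate them. Fgf18 was the 1 member of 8 that fell in both cell types, as did 3.82% of the 13032 genes tested in both. By limma no member rose in both, against 6.00% of these genes, and none changed in opposite directions, against 4.24%. At an unadjusted p under 0.05 these counts over the members were 1 and 0.

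HGF, also called scatter factor, acts on cells that carry MET. The Hgf gene spans 66.7 kb of the plus strand of chromosome 5 (16553495 to 16620152). In SMCs Hgf measured 81.9, 65.5 and 66.8 TPM under Scr against 40.5, 38.1 and 45.1 TPM under siKlf4, so that the highest siKlf4 value lay well below the lowest Scr value. The difference was −0.77 ± 0.11 (adjusted p = 0.0038), and 57.7% of the Scr mean was left. PDGFR-β+ cells gave 45.8, 46.2 and 44.9 TPM under Scr against 58.1, 45.5 and 47.3 TPM under siKlf4. These groups overlapped, and the difference of 0.13 ± 0.10 did not pass the threshold (adjusted p = 0.34). The effect in SMCs was lower than that in PDGFR-β+ cells by 0.90 ± 0.16 on the log2 scale (interaction term −0.90, adjusted p = 0.0011). Of the 13032 genes with this test, 33.0% passed it in either direction.

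FGF7, or keratinocyte growth factor, had the highest mean of the ligands in each cell type with Scr. Over both treatments, Fgf2 lay above Fgf7 in 3 of the 6 PDGFR-β+ libraries, which were Scr replicate 2 and siKlf4 replicates 1 and 3. In PDGFR-β+ cells Fgf7 measured 239, 215 and 254 TPM under Scr against 126, 131 and 117 TPM under siKlf4. The groups were far apart, with every siKlf4 library at 131 TPM or less, and 52.8% of the Scr mean was left (−0.92 ± 0.08, adjusted p = 0.00020). In SMCs it stood at 451, 388 and 385 TPM under Scr against 485, 451 and 438 TPM under siKlf4. Here the groups overlapped, and the difference was 0.17 ± 0.08 (adjusted p = 0.17). The unnumbered library was the highest of its group with either treatment. With a term for the unnumbered libraries the same difference had an adjusted p of 0.025, and among the numbered libraries alone it was 0.20 (adjusted p = 0.027). The effects differed between the cell types by 1.09 ± 0.12 (adjusted p = 6.06e-05), the largest difference among the members whose difference passed.

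FGF10, the mesenchymal signal for airway branching, moved the other way in PDGFR-β+ cells. Fgf10 measured 48.2, 41.1 and 46.7 TPM under Scr against 73.1, 62.4 and 64.6 TPM under siKlf4 in these cells. The groups did not overlap, the rise was 0.55 ± 0.09 (adjusted p = 0.0033), and the mean was 1.47 times that of Scr. In SMCs it measured 53.7, 54.2 and 52.5 TPM under Scr against 68.3, 58.9 and 57.8 TPM under siKlf4. These groups did not overlap either, but the difference of 0.20 ± 0.08 did not pass the threshold (adjusted p = 0.11, or 0.049 with a term for the unnumbered libraries). The effects in the cell types differed by −0.35 ± 0.13 (adjusted p = 0.052), and 8 of 21 alternative settings put this difference past the threshold.

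Since FGF7 and FGF10 are ligands of the same FGFR2 splice form, their ratio was taken within each library. Fgf7 exceeded Fgf10 in all libraries. In PDGFR-β+ cells the ratio of Fgf7 to Fgf10 was 5.21 ± 0.24 with Scr (SD, n = 3) and 1.88 ± 0.20 with siKlf4, without overlap. In SMCs it was 7.63 ± 0.67 with Scr and 7.45 ± 0.31 with siKlf4, and the libraries overlapped. The ratio follows from the levels above and was not tested on its own.

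FGF2, or basic FGF, lacks a classical secretion signal and is released by an unconventional route. In SMCs Fgf2 measured 23.6, 27.0 and 36.7 TPM under Scr against 152, 28.7 and 33.5 TPM under siKlf4. In PDGFR-β+ cells its levels were 62.8, 269 and 59.7 TPM under Scr against 163, 24.2 and 146 TPM under siKlf4. Single libraries stood far from the rest of their group in 3 of the 4 groups, in both directions. The coefficient of variation within these 3 groups was 97.7%, 91.9% and 68.1%, whereas the median over genes of at least 10 TPM was 6.79% to 8.73% in the 4 groups. The effect was 0.86 ± 0.58 in SMCs (adjusted p = 0.30) and −0.26 ± 0.83 in PDGFR-β+ cells (adjusted p = 0.83), so no direction can be read. Without the unnumbered siKlf4 library the difference in SMCs was 0.11, and without Scr replicate 2 that in PDGFR-β+ cells was 0.44. Fgf2, on the plus strand of chromosome 3 (37348346 to 37410108), overlaps Nudt6 on the opposite strand (37404910 to 37420211). Nudt6 ranged from 2.21 to 5.89 TPM over the 12 libraries, below Fgf2 in each of them. The libraries were strand-specific by the methods, but whether strand was used in the quantification is not given in the sources used here, so reads shared by the pair could not be told apart.

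Fgf5, a ligand known from the hair cycle, was listed at 0 in 6 of 12 libraries and reached at most 0.0741 TPM. It is not expressed at a level that can be compared here.

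**Figure D2:**
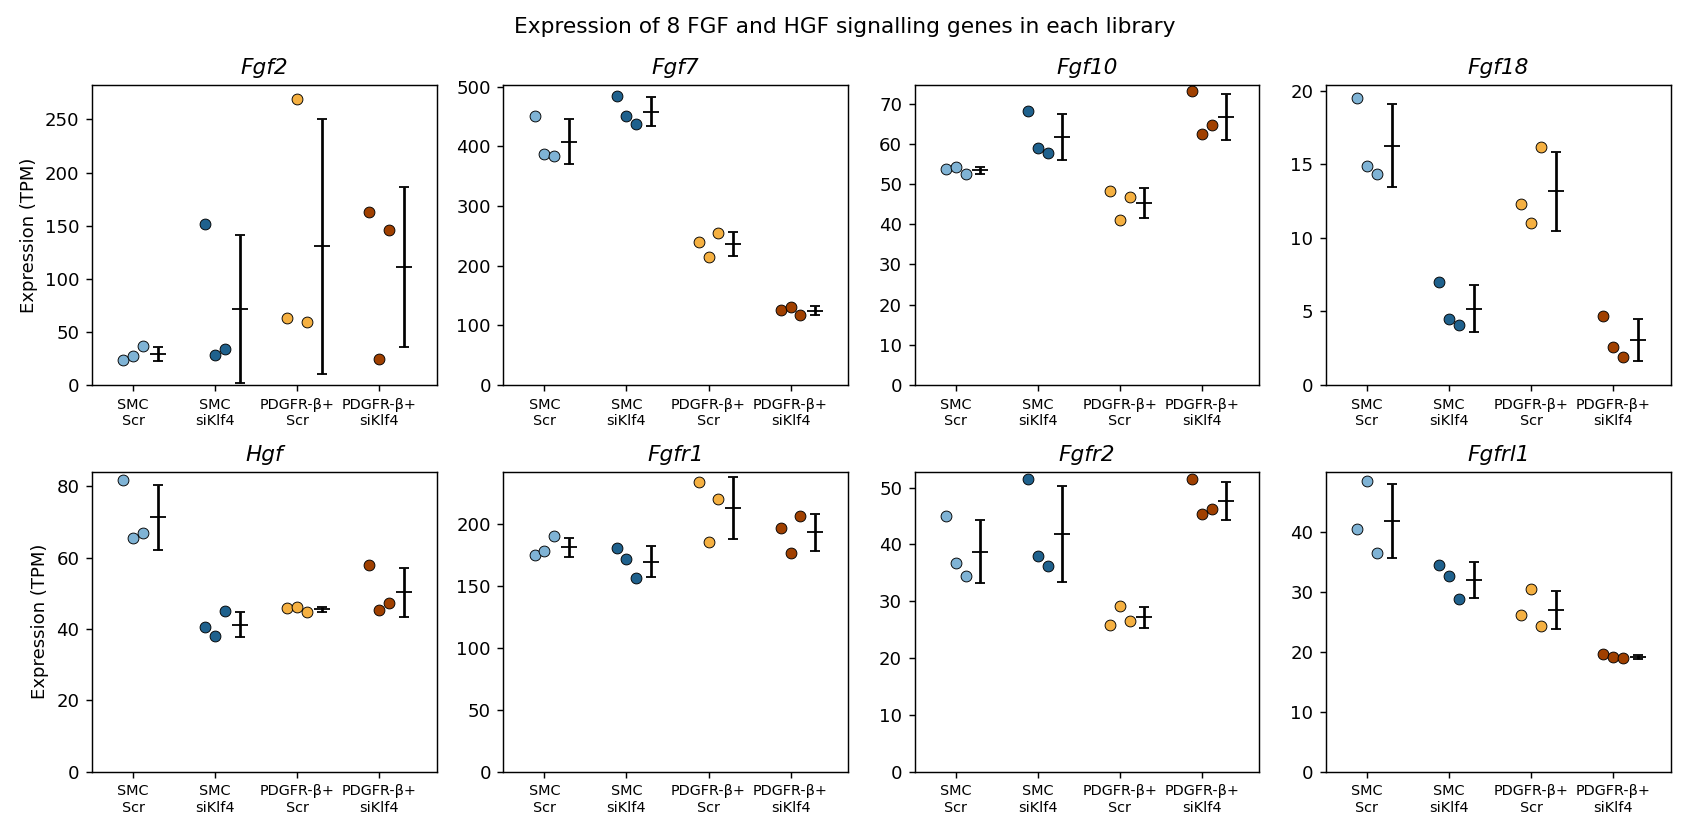
Expression in TPM of 8 genes in each of the 12 libraries (points), with the mean and SD of each group of 3 beside them. Fgf18 lies lower with siKlf4 in both cell types, Hgf in SMCs and Fgf7 in PDGFR-β+ cells, while Fgf2 ranges from 23.6 to 269 TPM with wide scatter inside groups.

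Among the receptors, Fgfr1 was the most abundant and its groups overlapped in both cell types. FGFR1 is the main FGF receptor of mesenchymal cells. It measured 175, 178 and 190 TPM under Scr against 181, 171 and 156 TPM under siKlf4 in SMCs, a difference of −0.10 ± 0.08 (adjusted p = 0.37). In PDGFR-β+ cells it measured 233, 185 and 220 TPM under Scr against 196, 177 and 206 TPM under siKlf4, a difference of −0.14 ± 0.10 (adjusted p = 0.33). Neither difference exceeded the spread between libraries.

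Fgfr2 rose in PDGFR-β+ cells. It measured 25.8, 29.2 and 26.5 TPM under Scr against 51.5, 45.3 and 46.2 TPM under siKlf4, without overlap, and the mean was 1.76 times that of Scr (0.79 ± 0.09, adjusted p = 0.00044). SMCs gave 45.1, 36.7 and 34.4 TPM under Scr against 51.5, 37.9 and 36.2 TPM under siKlf4. These groups overlapped, with the unnumbered library the highest in each, and the difference was 0.10 ± 0.16 (adjusted p = 0.66). Without the unnumbered siKlf4 library the difference was −0.05. The effects differed between the cell types by −0.69 ± 0.19 (adjusted p = 0.016). The ratio of Fgfr1 to Fgfr2 in PDGFR-β+ cells was 7.90 ± 1.41 with Scr (SD, n = 3) and 4.06 ± 0.36 with siKlf4, without overlap. In SMCs it was 4.75 ± 0.82 and 4.12 ± 0.54, with overlap.

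Fgfrl1 encodes a receptor-like protein that binds FGFs and heparin but has no tyrosine kinase domain. In PDGFR-β+ cells Fgfrl1 measured 26.1, 30.5 and 24.3 TPM under Scr against 19.6, 19.1 and 18.9 TPM under siKlf4, and it fell by 0.46 ± 0.10 on the log2 scale (adjusted p = 0.0083). The siKlf4 libraries lay close together and below every Scr library. In SMCs it stood at 40.5, 48.5 and 36.4 TPM under Scr against 34.5, 32.7 and 28.7 TPM under siKlf4, also without overlap. That difference of −0.37 ± 0.12 did not pass (adjusted p = 0.061), and under 4 of 16 alternative settings it did. The effects in the cell types differed by 0.09 ± 0.16 (adjusted p = 0.69). Fgfr3 stayed between 0.138 and 1.16 TPM over the 12 libraries, and the groups overlapped in both cell types.

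**Figure D3:**
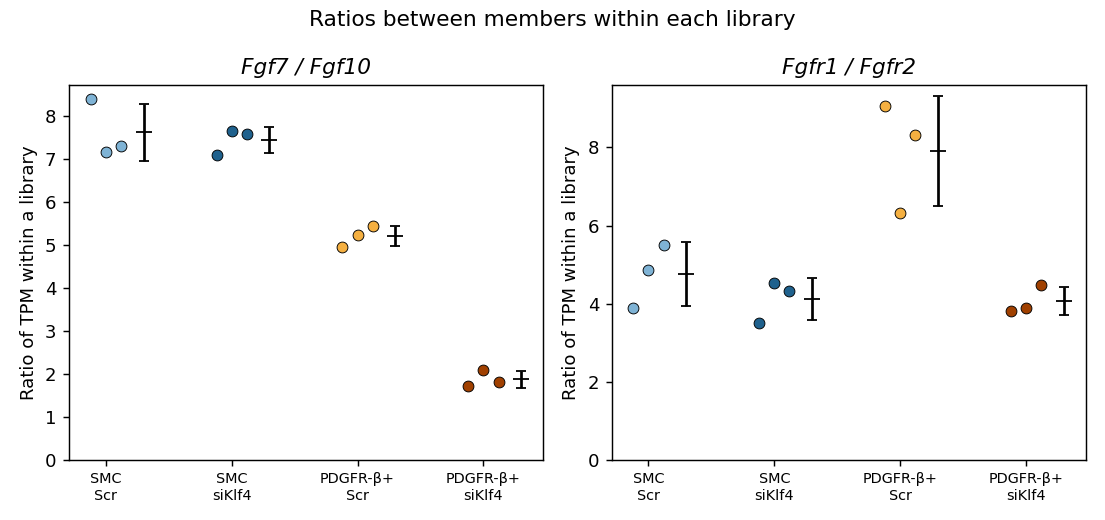
Ratio of Fgf7 to Fgf10 and of Fgfr1 to Fgfr2, from TPM within each library (points), with the mean and SD of each group of 3. In PDGFR-β+ cells the first ratio goes from 5.21 with Scr to 1.88 with siKlf4 and the second from 7.90 to 4.06, whereas the SMC groups overlap.

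At baseline, in the Scr libraries, the order of levels was similar in both cell types. From the highest mean down it ran Fgf7, Fgfr1, Hgf, Fgf10, Fgfrl1, Fgfr2, Fgf2, Fgf18, Fgfr3 and Fgf5 in SMCs, at 408, 181, 71.4, 53.5, 41.8, 38.7, 29.1, 16.3, 0.467 and 0.0171 TPM. In that order the libraries of Fgfrl1 and Fgfr2 overlapped, as did those of Fgfr2 and Fgf2. In PDGFR-β+ cells the means were 236 TPM for Fgf7, 213 for Fgfr1, 131 for Fgf2, 45.6 for Hgf, 45.4 for Fgf10, 27.1 for Fgfr2, 27.0 for Fgfrl1, 13.1 for Fgf18 and 0.853 for Fgfr3, with Fgf5 listed at 0. There Fgf7 and Fgfr1, Fgfr1 and Fgf2, Hgf and Fgf10, and Fgfr2 and Fgfrl1 overlapped. Fgf7 and Fgfr1 stood above 98.6% and 96.4% of genes detected with Scr in SMCs, and above 97.3% and 96.9% in PDGFR-β+ cells.

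Between the cell types, Fgf7, Fgf10, Fgfr2, Fgfrl1 and Hgf were higher in all Scr-treated SMC libraries than in all Scr-treated PDGFR-β+ libraries, by 1.18 to 1.73 times in the means. Of all genes that averaged 1 TPM or more in either, 30.7% lay above in this way and 28.2% below. Fgf2 lay below, its mean in PDGFR-β+ cells being 4.49 times that in SMCs, or 2.11 times without Scr replicate 2. Fgf18, Fgfr1 and Fgfr3 overlapped. The cell types came in separate tables and were grown from different sources, so cell type, origin and table cannot be told apart, and no test was made of these levels.

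**Figure D4:**
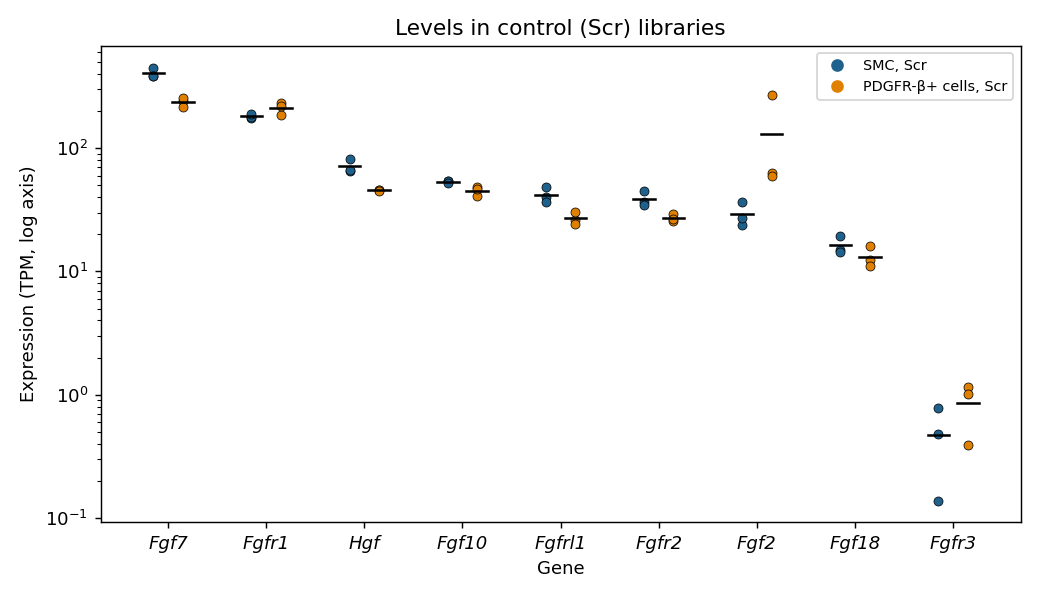
Levels in TPM (log axis) of 9 genes in the 3 Scr libraries of each cell type (points), with bars at the means. Fgf7 has the highest mean and Fgfr1 the next in each cell type, and Fgfr3 is near or under 1 TPM in both. Fgf5, at 0 in the PDGFR-β+ libraries, is not drawn.

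The HGF receptor, the proteases that activate HGF, their inhibitors, and the HGF-related Mst1 with its receptor gene Mst1r were examined as a list of 10 genes. Of 6 tested in SMCs, 2 rose and 1 fell, with a median effect of 0.43. Of 5 tested in PDGFR-β+ cells, 3 rose and 1 fell, with a median of 0.29. For this list and those below, the shares over all genes tested in SMCs were 15.6% higher and 12.9% lower. In PDGFR-β+ cells these shares were 25.3% and 15.3%. Met measured 22.4, 23.2 and 24.2 TPM under Scr against 35.8, 33.8 and 33.1 TPM under siKlf4 in SMCs, a rise of 0.54 ± 0.07 (adjusted p = 0.0035). Its groups lay well apart, so that the ligand gene fell and the receptor gene rose in the same SMC libraries. In PDGFR-β+ cells Met measured 25.0, 22.9 and 25.1 TPM under Scr against 27.5, 30.2 and 32.2 TPM under siKlf4, a rise of 0.29 ± 0.09 (adjusted p = 0.035). This call was lost under 8 of 14 alternative settings, with adjusted p-values up to 0.17, among them both other scalings and the omission of any 1 of 5 libraries.

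Plau, which encodes urokinase, a protease that can activate HGF, rose in both cell types. In SMCs it measured 28.0, 22.7 and 21.7 TPM under Scr against 46.4, 41.3 and 36.7 TPM under siKlf4 (0.76 ± 0.13, adjusted p = 0.0063). PDGFR-β+ cells gave 67.2, 73.1 and 65.4 TPM under Scr against 130, 119 and 116 TPM under siKlf4 (0.82 ± 0.08, adjusted p = 0.00022). The groups did not overlap in either. Mst1r, which encodes RON, the receptor of the HGF-related macrophage stimulating protein, fell in both, from a mean of 16.8 to 12.5 TPM in SMCs (adjusted p = 0.044) and from 4.09 to 2.81 TPM in PDGFR-β+ cells (adjusted p = 0.029). The call in SMCs was lost without any 1 of the 6 libraries, with no filter on low values and with the replicate block, and that in PDGFR-β+ cells without any 1 of 5 libraries, with no filter and with the block. St14, which encodes the membrane protease matriptase, rose in PDGFR-β+ cells from 0.821 to 1.62 TPM (adjusted p = 0.045), a call lost under both other scalings, with no filter, with the block and without any 1 of the 6 libraries.

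Genes that FGF and other receptors induce through ERK, most of them feedback inhibitors, formed a list of 14, of which 13 were tested in each cell type and 7 rose in both. Of all 13032 genes tested in both cell types, 6.00% rose in both. In SMCs 9 rose and none fell, by limma or at an unadjusted p under 0.05, with a median effect of 0.85. In PDGFR-β+ cells 8 rose and 1 fell, with a median of 0.53, and with either other scaling 7 rose. The 7 that rose in both are named after their values were seen: Dusp6, Etv1, Etv4, Etv5, Spred1, Spry1 and Spry4. The rise of Etv4 in PDGFR-β+ cells was the 1 lost under the other scalings, and it was also lost with no filter and without any 1 of 4 libraries. By its own test on counts, the paper reports Etv4 as not significantly raised in these cells, with only an upward trend. Dusp6, the phosphatase of ERK itself, measured 10.2, 14.9 and 19.5 TPM under Scr against 34.2, 50.7 and 41.3 TPM under siKlf4 in SMCs. In PDGFR-β+ cells its levels were 20.2, 21.4 and 15.7 TPM under Scr against 40.6, 49.3 and 48.2 TPM under siKlf4. All siKlf4 values of Dusp6 exceeded all Scr values of either cell type, with rises of 1.46 ± 0.23 (adjusted p = 0.0055) and 1.23 ± 0.13 (adjusted p = 0.00042).

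Etv1, an ETS factor induced by FGF, measured 4.75, 5.54 and 4.81 TPM under Scr against 12.9, 13.8 and 9.18 TPM under siKlf4 in SMCs. In PDGFR-β+ cells it measured 2.59, 2.52 and 4.58 TPM under Scr against 8.87, 14.8 and 11.04 TPM under siKlf4, the largest rise of the list there (1.58 ± 0.23, adjusted p = 0.0017). Spry1, a Sprouty inhibitor of receptor signalling, went from a mean of 6.43 to 12.3 TPM in SMCs (adjusted p = 0.0044) and from 14.0 to 30.2 TPM in PDGFR-β+ cells (adjusted p = 0.00023). Spred2, a related inhibitor of the Ras to ERK step, fell in PDGFR-β+ cells from 77.3 to 36.6 TPM (−1.05 ± 0.09, adjusted p = 0.00014). SMC means were 51.2 TPM under Scr against 56.5 TPM under siKlf4 (adjusted p = 0.20), and the effects differed by 1.19 ± 0.11 (adjusted p = 2.54e-05). Dusp4 and Dusp5, further phosphatases named after their values were seen, rose in SMCs by 1.33 ± 0.12 and 1.43 ± 0.13, and their effects exceeded those in PDGFR-β+ cells by 1.70 ± 0.23 (adjusted p = 0.00026) and 1.32 ± 0.23 (adjusted p = 0.0011). Spry2 and Etv5, also named after their values were seen, had larger effects in PDGFR-β+ cells. Their differences were −0.36 ± 0.12 (adjusted p = 0.041) and −0.36 ± 0.12 (adjusted p = 0.047). The genes of this list respond to EGF, also present in the medium, and to other ligands too. The activity of ERK was not measured in these data.

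**Figure D5:**
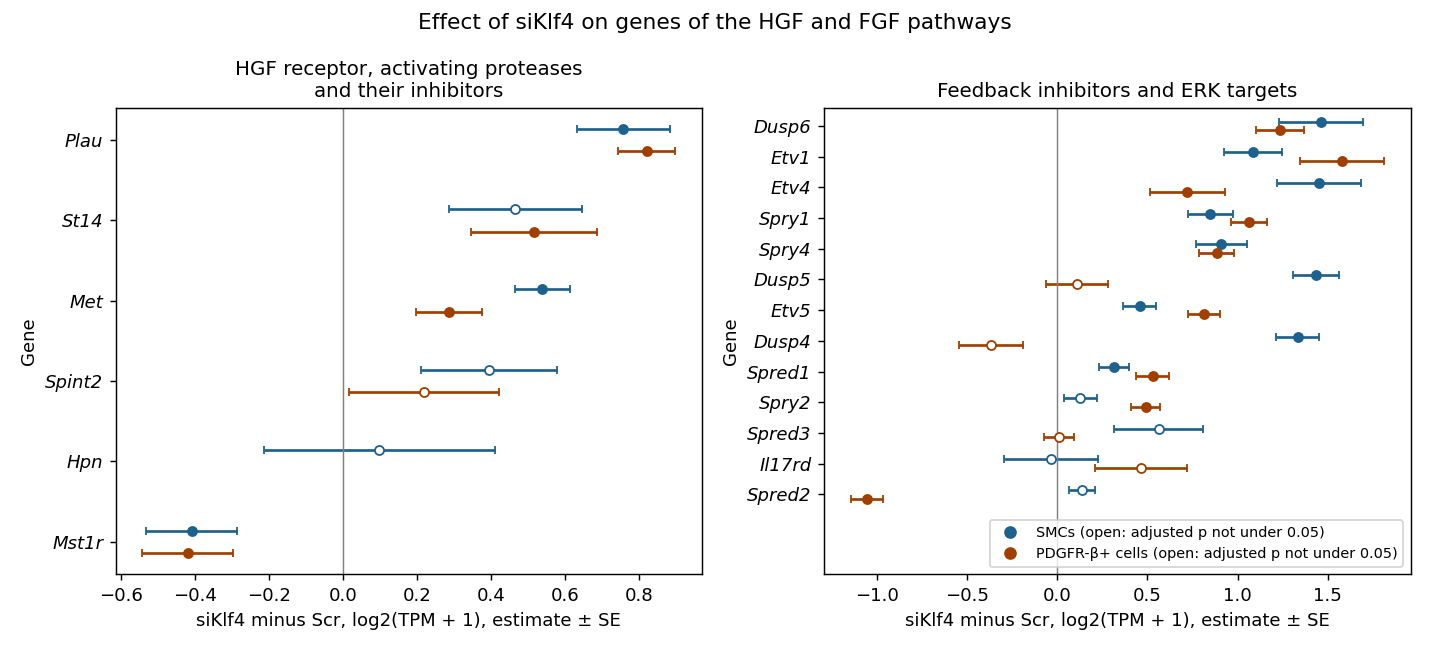
Effects of siKlf4 (log2(TPM + 1), siKlf4 minus Scr, with SE) on tested genes in both cell types. The genes are those of the HGF receptor, protease and inhibitor list and of the feedback and ERK target list. Filled points have an adjusted p under 0.05; Dusp6 lies at 1.46 in SMCs and 1.23 in PDGFR-β+ cells, and Spred2 at −1.05 in PDGFR-β+ cells.

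Heparan sulphate proteoglycans and their modifying enzymes, which hold FGFs and HGF at the cell surface, moved in both directions. In SMCs 6 of 19 tested rose and 4 fell (median 0.14), the rise of Gpc4 being lost with quantile normalization, and in PDGFR-β+ cells 4 of 18 rose and 7 fell (median −0.11). Over all genes tested, 28.5% changed in SMCs and 40.6% in PDGFR-β+ cells. Gpc3, a glypican, measured 101, 66.3 and 59.0 TPM under Scr against 41.7, 22.4 and 27.1 TPM under siKlf4 in SMCs and under 1 TPM in every PDGFR-β+ library. Its groups in SMCs did not overlap, and it had the largest fall of the list there (−1.29 ± 0.27, adjusted p = 0.013). Hs6st2, which adds sulphate at the sixth carbon of glucosamine, had the largest rise in SMCs, from a mean of 35.6 to 63.1 TPM (adjusted p = 0.0010). In PDGFR-β+ cells the largest fall was that of Glce, the epimerase that forms iduronic acid in the chain. It measured 41.6, 37.7 and 42.4 TPM under Scr against 17.2, 19.4 and 17.4 TPM under siKlf4 (−1.13 ± 0.09, adjusted p = 8.84e-05), while in SMCs its means were 17.4 and 20.5 TPM (adjusted p = 0.13). These effects differed by 1.35 ± 0.13 (adjusted p = 2.06e-05). The largest rise in PDGFR-β+ cells was that of the glypican Gpc2, to 2.23 times its Scr mean of 3.58 TPM (adjusted p = 0.0097).

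Of 11 adaptors, docking proteins and other intracellular signalling proteins, all were tested. In SMCs 3 rose and by limma none fell, 1 having an unadjusted p under 0.05 in that direction, with a median effect of 0.23. In PDGFR-β+ cells 3 rose and 1 fell, with a median of 0.18, and under either other scaling the rise of Frs2 was lost. Among all genes tested, 28.5% changed in SMCs and 40.6% in PDGFR-β+ cells, and the counts of this list over both directions did not exceed those shares. By direction, the 3 rises of 11 lay above the 15.6% of all genes that rose in SMCs, and near the 25.3% in PDGFR-β+ cells. Shc1, an adaptor of many receptor tyrosine kinases, changed in opposite directions. It measured 241, 254 and 236 TPM with Scr and 299 TPM in each siKlf4 library in SMCs (0.30 ± 0.06, adjusted p = 0.011). PDGFR-β+ cells gave 189, 180 and 180 TPM under Scr against 104, 97.8 and 97.9 TPM under siKlf4 (−0.87 ± 0.06, adjusted p = 7.37e-05). The effects differed by 1.16 ± 0.08 (adjusted p = 3.35e-06). Ptpn11, which encodes the phosphatase SHP2, rose in SMCs from a mean of 103 to 143 TPM (adjusted p = 0.0030), and Gab1, a docking protein of MET, rose in PDGFR-β+ cells from 12.8 to 19.2 TPM (adjusted p = 0.0026).

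Most of the remaining ligands were not detected at a level to be tested. Of 17 other FGF ligands, 2 were tested in SMCs and neither changed by limma, 1 having an unadjusted p under 0.05 for a fall. In PDGFR-β+ cells 1 was tested, Fgf13, an intracellular member that does not act through FGF receptors. It rose from 2.58 to 4.75 TPM (adjusted p = 0.020), a call lost without Scr replicate 1 and without a filter on low values. Of 8 genes for FGFR4, the Klotho coreceptors, and FGF-binding or FLRT proteins, 3 were tested in each cell type. None changed in SMCs or PDGFR-β+ cells by limma, and 0 had an unadjusted p under 0.05, but with median-ratio scaling Flrt2 was called lower in PDGFR-β+ cells. Over the 6 lists together, 25 of 54 tested genes (46.3%) changed in SMCs, against 28.5% of all genes tested, and 29 of 51 (56.9%) in PDGFR-β+ cells, against 40.6%. The lists were chosen with earlier results of these data known, so these shares only describe them and were not tested.

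Across the 12 libraries, the genes whose log2(TPM + 1) was most alike were sought for the 3 members with the largest called changes, among 13031 genes. Fgf18 was most like Mettl7a1 and Man1c1 (Pearson r = 0.98 for both). Fgf7 was most like Alg2 and Wdr35 (r = 0.99 for both), and Fgfr2 was most like Zbtb5 and Zfp592 (r = 0.96 for both). The 12 points share 2 cell types, 2 treatments and 2 tables, so these values describe likeness of pattern and nothing more.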

How the data were processed

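The authors aligned trimmed reads to mm10 with HISAT2 and GENCODE annotation, estimated abundance with StringTie, and deposited TPM per library, in a separate table for each cell type. TPM carries no depth, which leaves the counting error unknown, and precision comes from the 3 libraries of a group. Because each library sums to the same total, strong rises of some genes lower the values of others. The study's DESeq2 test on counts was not repeated. All columns were used, and 2 SMC columns that carry no number were placed in their groups by name.

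Values were analysed as log2(TPM + 1) with limma 3.58.1 in R 4.3.3 (lmFit, eBayes with trend), each cell type on its own, for genes averaging 1 TPM or more over 6 libraries. The interaction over 12 libraries tested the difference between cell types. The procedure was tested on simulated data. All members were named, and from the other lists Met and the called genes with the largest rise and fall in each cell type. The remaining names (Krt8, Sftpc, Tie1, Krt19, Acta2, Tagln, Myocd, Msln, Wt1, Cd14, St14, Flrt2, Frs2, Gpc4 and, where said, others) were chosen after their values were seen. The members and lists were chosen with earlier results of these data known. Positions come from GENCODE M21 (GRCm38) and promoters from RefSeq. Alternatives were other pseudocounts, filters, scalings and variance settings, omission of each library, a replicate block, a single fit, and a term for the unnumbered SMC libraries.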

Additional observations from a re-analysis of the deposited data

Results flagged for a closer look

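Of the 8 members tested in both cell types, 3 had effects of siKlf4 that differed between SMCs and PDGFR-β+ cells by the interaction term of limma. Among all 13032 genes with this test, 33.0% passed it in either direction, so the count does not set the members apart. For Fgf7 the effect in SMCs minus that in PDGFR-β+ cells was 1.09 ± 0.12 on the log2 scale (adjusted p = 6.06e-05), with the fall in PDGFR-β+ cells seen in 3 of 3 libraries. For Hgf it was −0.90 ± 0.16 (adjusted p = 0.0011), with the fall in SMCs seen in 3 of 3 libraries. For Fgfr2 it was −0.69 ± 0.19 (adjusted p = 0.016), with the rise in PDGFR-β+ cells seen in 3 of 3 libraries. Each of these differences passed the threshold under all 21 alternative settings, with adjusted p-values of at most 0.003 for Fgf7, 0.011 for Hgf and 0.042 for Fgfr2. Klf4 itself was lowered more in PDGFR-β+ cells, by a difference of 1.19 ± 0.19 (adjusted p = 0.00069), and the interferon-stimulated genes had a median effect of 1.83 in SMCs, against 4.79 in PDGFR-β+ cells. The part of either in the differences above was not tested.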

How the results depend on the processing

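In PDGFR-β+ cells, 2 members rose and 3 fell under each of 14 alternatives. The effects of Fgf18 and Hgf in SMCs kept direction and call under all 16, between −1.70 and −1.37 and between −0.84 and −0.66. Members higher in SMCs numbered 0, but 2 with a term for the unnumbered libraries, 1 among the numbered libraries alone, and 0 to 1 without single libraries. Genes called in SMCs ranged from 1157 to 2037 higher and 1044 to 1578 lower without single libraries. Of the members not called, Fgf2 in SMCs turned to −0.020 with the replicate block and among the numbered libraries. Without single libraries Fgfr2 in SMCs ranged from −0.054 (unnumbered siKlf4 library left out) to 0.21, and Fgf2 in PDGFR-β+ cells from −0.74 to 0.61 (siKlf4 replicate 2 left out; 0.44 without Scr replicate 2). The difference of Fgfr1 between cell types turned to −0.00091 with quantile normalization, −0.033 with the block or the numbered libraries, and −0.030 to 0.14 without single libraries. Members lower in Scr-treated SMCs numbered 1 to 2 without single libraries. The cause of these changes was not tested.

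Same-numbered libraries did not deviate together in PDGFR-β+ cells (r = 0.073, −0.016 and 0.0043), and 2 SMC pairs (r = 0.11) are too few to tell. With the replicate block, 1500 genes rose and 1353 fell in SMCs (4 libraries), 3486 and 2155 in PDGFR-β+ cells, and Fgfrl1 also passed in SMCs (−0.44, adjusted p = 0.046). Fgf5 and Fgfr3 lay below the minimum of 1 TPM and were not tested.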
